A study of Mus musculus with 18 samples.

Results

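The genes described here are the translation initiation and elongation factors of the mouse brain, 67 of the 23420 gene symbols of the deposited count table. They were chosen by name alone, as symbols that begin with Eif1 to Eif6, Eef1, Eef2 or Pabpc and a digit. The binding proteins Eif4ebp1 to Eif4ebp3 and the kinases Eif2ak1 to Eif2ak4, which control these factors, were left out of the set and are given separately below. The set includes Eif2c1 to Eif2c4, old symbols of the Argonaute genes Ago1 to Ago4, which encode proteins that carry small RNAs, not initiation factors. The other 63 members match by name too, and some, such as the kinase Eef2k and the synthetase scaffold Eef1e1, are not factors themselves. All mice had the genotype Camk2a-Cre-Rpl22HA, in which a Cre recombinase driven by the Camk2a promoter, active in excitatory neurons of the forebrain, switches on a haemagglutinin (HA) tag on the ribosomal protein Rpl22. Ribosome-bound RNA pulled down through the tag (IP) was sequenced beside the total RNA of the same kind of tissue (input). Control mice had no tumor, tumor mice had glioma cells placed in the cortex, and the remaining mice had tumors and were given AZD8055, an inhibitor of the mTOR kinase (called AZD here). With 3 conditions and 2 fractions there were 6 groups, and 3 libraries were made for each, which gives 18. The labels give no dose, duration, vehicle, age or sex, do not name the glioma line, and do not state that every library comes from its own animal; p-values therefore reflect only library-to-library spread, part of which may be technical.

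Translation of an mRNA begins when eIF4E binds its cap together with the scaffold eIF4G and the helicase eIF4A, a complex called eIF4F. A small ribosomal subunit carrying eIF1, eIF1A, eIF3 and the initiator tRNA bound to eIF2 is then brought to the mRNA and scans for the start codon. eIF5 and eIF5B act in the late steps of initiation, and eIF2B reloads eIF2 with GTP. eEF1A and eEF2 drive elongation by delivering aminoacyl-tRNAs and moving the ribosome along. The mTOR kinase frees eIF4E from its binding proteins, and the mRNAs of many elongation factors, of some eIF3 subunits and of Pabpc1 begin with a run of pyrimidines, the TOP motif, which ties their own translation to mTOR. Neurons are known for Eef1a2, which takes over from the widely expressed Eef1a1 in mature neurons and muscle.

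Library totals lay between 13561511 and 34178417 counts, and levels are given as CPM, counts scaled to a common library size with TMM factors, in the order of replicates 1 to 3. Because CPM values are not divided by gene length, a level is set only against the same gene in other groups. Summed over 8 markers of the oligodendrocyte precursor and glioma lineage, control IP held 413 to 544 CPM, tumor IP 4834 to 5264 and AZD IP 505 to 690.0, while the inputs ran at 535 to 608 (control), 5999 to 6786 (tumor) and 2798 to 4033 (AZD). The 10 excitatory neuron markers summed to 3240.2 to 3986 CPM in control IP, 1558 to 2036 in tumor IP and 3611 to 4375 in AZD IP, and to 2577 to 2882, 990.5 to 1758 and 1319.8 to 1749.5 in the matching inputs. The 8 astrocyte markers summed to 6754 to 7124 CPM in control IP, 3589 to 5167 in tumor IP and 1705 to 2228 in AZD IP, and the 8 microglia markers to 261 to 285, 183 to 258 and 33.9 to 51.1. In the inputs the astrocyte sums were 6737 to 8016 (control), 4163 to 5482 (tumor) and 4643 to 5547 (AZD), and the microglia sums 279 to 308, 231 to 279 and 257 to 266. Markers of the glioma lineage, of neurons and of glia thus differed between the conditions compared below, and their part in the differences of the factors was not tested. Fewer cells of a type and less RNA per cell cannot be told apart in these libraries. By their name prefixes, control and tumor inputs form 1 library set, control and tumor IPs another and all AZD libraries one more. AZD against tumor or control, and IP against input in control or tumor, therefore cannot be told apart from the library set. The same holds for the IP minus input contrast of AZD against tumor, since the fractions share a set with AZD but not in tumor. Tumor replicate 1 had the lowest excitatory marker sum of the tumor libraries in both fractions.

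Most of the factors were expressed in every group. Of the 67 members, 60 reached a mean of 1 CPM over the 18 libraries. Eif3j1 and Eif3j2, near-identical copies of an eIF3 subunit gene, were listed at 0 in all libraries, and Eif4e1b, Pabpc1l, Pabpc2, Pabpc4l and Pabpc6 stayed under a mean of 1 CPM. A member could be tested only if it passed the filter on low counts, which 61 or 62 did in each comparison. Summed over all members, control input had 8196 ± 314 CPM and control IP 9184 ± 667 (mean ± SD, n = 3). Tumor input had 10474 ± 634 and tumor IP 10843 ± 62.04, and AZD input had 9872 ± 266 and AZD IP 10843 ± 505. In both fractions the 3 tumor libraries and the 3 AZD libraries all lay above the 3 control libraries, and tumor and AZD overlapped. The RefSeq table lists 14 named pseudogenes of members, among them copies of Eef1a1 and Eif1, so reads of such genes may have been shared between copies by the counting.

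Tumor libraries held more mRNA of many of the factors than control libraries, though the share of members called was close to that of all genes. In IP, 26 of 61 tested members were higher and 6 lower in tumor than in control, a call meaning an adjusted p under 0.05 in edgeR's quasi-likelihood test; that is 52.5% of the tested members, against 47% of all 15734 genes tested. The members divided differently by direction, with 42.6% higher and 9.84% lower, against 26.1% and 20.9% of all genes, and their median log2 fold was 0.28, against 0.02 for all genes. In input, 24 of 62 were higher and 4 lower (38.7% and 6.45%, against 48.1% of all genes called in either direction, 24.5% higher and 23.6% lower), with a median of 0.30 against -0.01. Scaled by plain library totals, which moved the median of all genes in IP to 0.11, the calls in IP were 33 higher and 4 lower. 19 members were higher and 4 were lower in both fractions, which is 31.1% and 6.56% of the 61 tested in both, beside 21.9% and 17.7% of all genes. Libraries of the same number in the 2 fractions deviated together, so the second fraction is not taken as an independent repeat. The labels do not say whether such libraries share an animal.

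**Figure D1:**
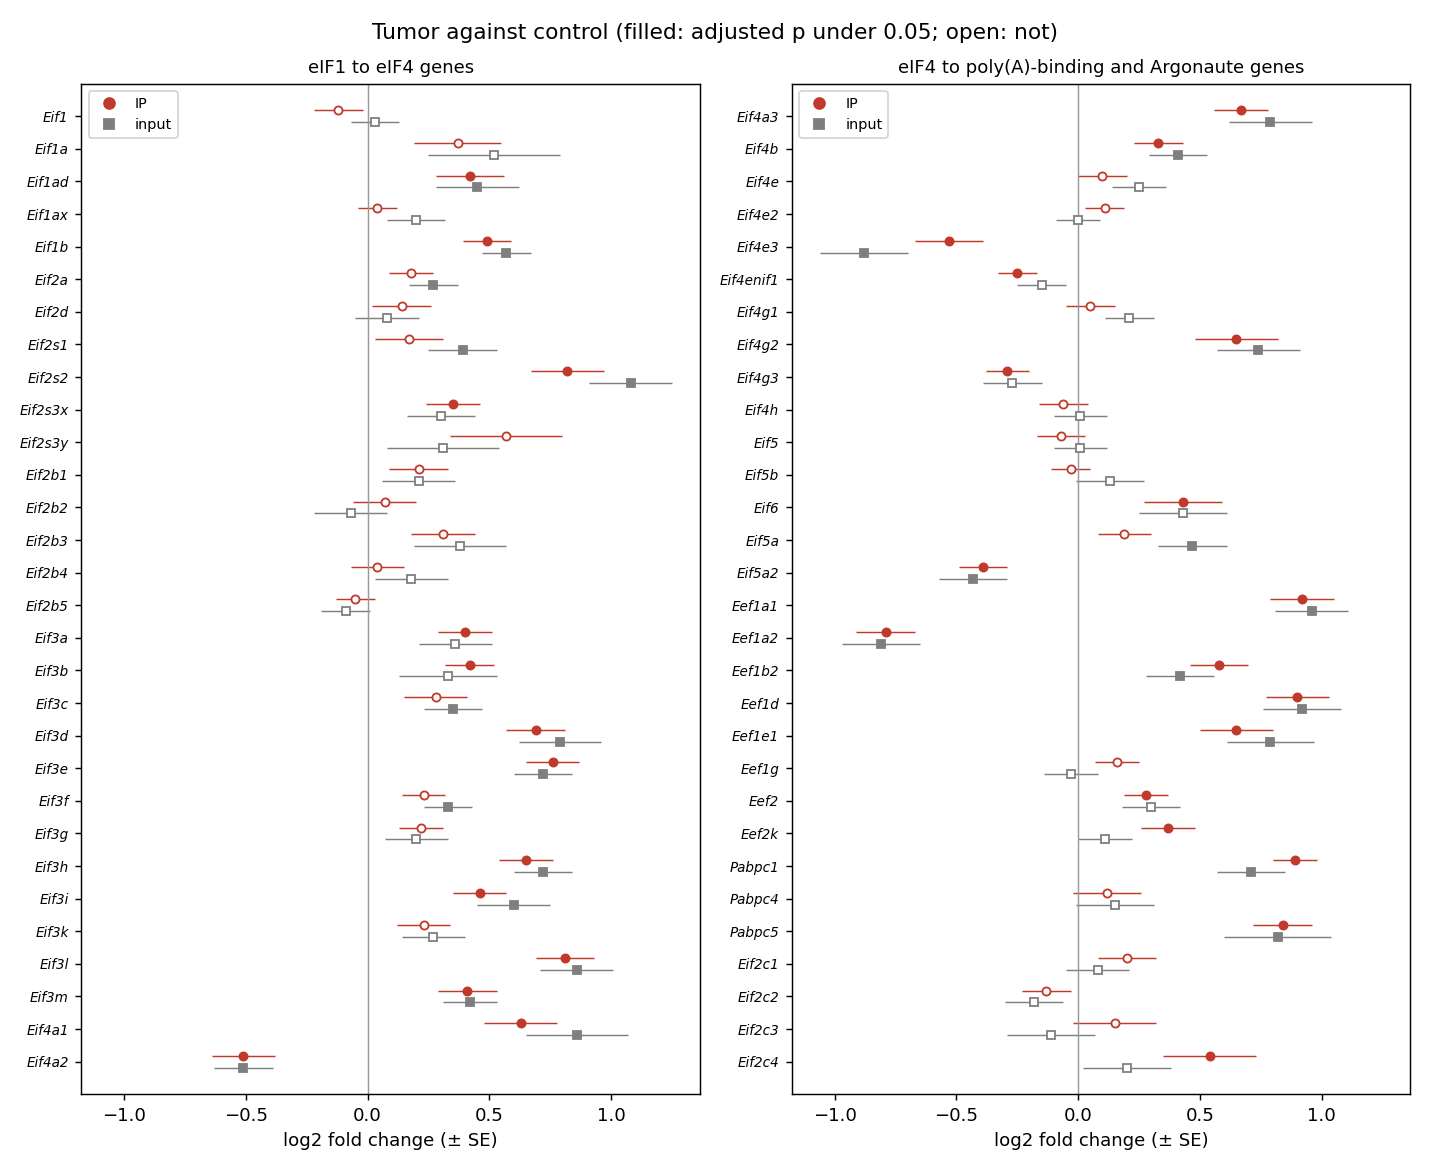
Log2 fold change (± SE) of tumor against control for each of the 60 members with a mean of at least 1 CPM, in IP (red circles) and input (grey squares), filled where the adjusted p is under 0.05. Most points lie right of 0, between 0 and 1.08, while Eef1a2, Eif4a2, Eif4e3 and Eif5a2 are the members called lower in both fractions.

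Among the elongation factors, the paired genes of eEF1A moved in opposite directions in tumor. Eef1a1 (chr9:78478453-78481724 in GRCm38), the widely expressed gene for eEF1A, had 1119, 992 and 979 CPM in control IP and 2019.7, 1893 and 1777 CPM in tumor IP. In AZD IP it had 1794, 1361 and 1380.3 CPM. Every tumor IP library lay above every control IP library, at a log2 fold of 0.92 ± 0.13 (adjusted p = 0.000342). Its inputs held 1229, 1029 and 1024 CPM in control input, 2393, 2287 and 1802 CPM in tumor input, and 2356, 1980.2 and 2129.5 CPM in AZD input, with a log2 fold of tumor over control of 0.96 ± 0.15 (adjusted p = 0.000721). The AZD mean lay between in IP, with replicate 1 inside the range of tumor, at -0.36 ± 0.13 (adjusted p = 0.035) against tumor and 0.55 ± 0.13 (adjusted p = 0.00921) against control, but with RLE size factors the call against tumor was lost.

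Eef1a2 (chr2:181141758-181157015), the neuronal and muscle gene for the same factor, ran the other way. It had 674, 588 and 619 CPM in control IP, 295, 406 and 364 CPM in tumor IP, and 745, 833 and 784 CPM in AZD IP. All 3 tumor IP libraries were below all control and AZD IP libraries, and tumor replicate 1 was the lowest. The log2 fold was -0.79 ± 0.12 (adjusted p = 0.000371) for tumor over control in IP and 1.12 ± 0.12 (adjusted p = 2e-05) for AZD over tumor. Input showed 603, 553 and 508 CPM in control input, 239, 376 and 351 CPM in tumor input, and 359.9, 388 and 429.6 CPM in AZD input. Here the tumor and AZD libraries both lay below control, at -0.81 ± 0.16 (adjusted p = 0.00284) and -0.48 ± 0.16 (adjusted p = 0.0406); the second of these calls was lost with plain library totals. AZD input over tumor input was 0.33 ± 0.16 (adjusted p = 0.189). The difference between fractions in the effect of AZD was itself called for Eef1a2, at 0.85 ± 0.21 (adjusted p = 0.00564) on the log2 scale, IP minus input.

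The exchange factor eEF1B, which reloads eEF1A with GTP, was measured through Eef1b2, Eef1d and Eef1g. Eef1d had 46.3, 46.6 and 43.8 CPM in control IP, 98.4, 67.2 and 83.4 CPM in tumor IP, and 66.4, 65.9 and 61.3 CPM in AZD IP. It stood higher in all tumor IP libraries than in all control IP libraries, with a log2 fold of 0.90 ± 0.13 (adjusted p = 0.000354), and was -0.40 ± 0.13 (adjusted p = 0.0217) in AZD against tumor, a call that RLE size factors removed. Its inputs ran at 51.7, 42.5 and 42.3 CPM in control input, 111, 79.4 and 71.001 CPM in tumor input, and 83.1, 94.9 and 84.7 CPM in AZD input. Eef1b2 rose by 0.58 ± 0.12 (adjusted p = 0.00234) in tumor IP and 0.42 ± 0.14 (adjusted p = 0.031) in tumor input. Eef1g, the structural subunit, was at 0.16 ± 0.09 (adjusted p = 0.165) in IP and -0.03 ± 0.11 (adjusted p = 0.821) in input, neither called. Eef1e1, a scaffold protein of the aminoacyl-tRNA synthetase complex, rose by 0.65 ± 0.15 (adjusted p = 0.00428) in tumor IP and was -0.57 ± 0.15 (adjusted p = 0.00689) in AZD IP against tumor IP.

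Eef2, the translocation factor, had 883, 821 and 815 CPM in control IP, 1031, 983 and 982 CPM in tumor IP, and 929, 945 and 945 CPM in AZD IP. The tumor IP libraries all lay above the control IP libraries, at a log2 fold of 0.28 ± 0.09 (adjusted p = 0.023) that was not called with RLE size factors. In input it was at 0.30 ± 0.12 (adjusted p = 0.0541) against control. AZD against tumor in IP was -0.12 ± 0.09 (adjusted p = 0.254), not called. Eef2k, the kinase that inhibits eEF2 by phosphorylation, rose by 0.37 ± 0.11 (adjusted p = 0.0208) in tumor IP and stood at 0.11 ± 0.11 (adjusted p = 0.444) in tumor input. AZD IP held more Eef2k than control IP, by 0.61 ± 0.11 (adjusted p = 0.00243).

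**Figure D2:**
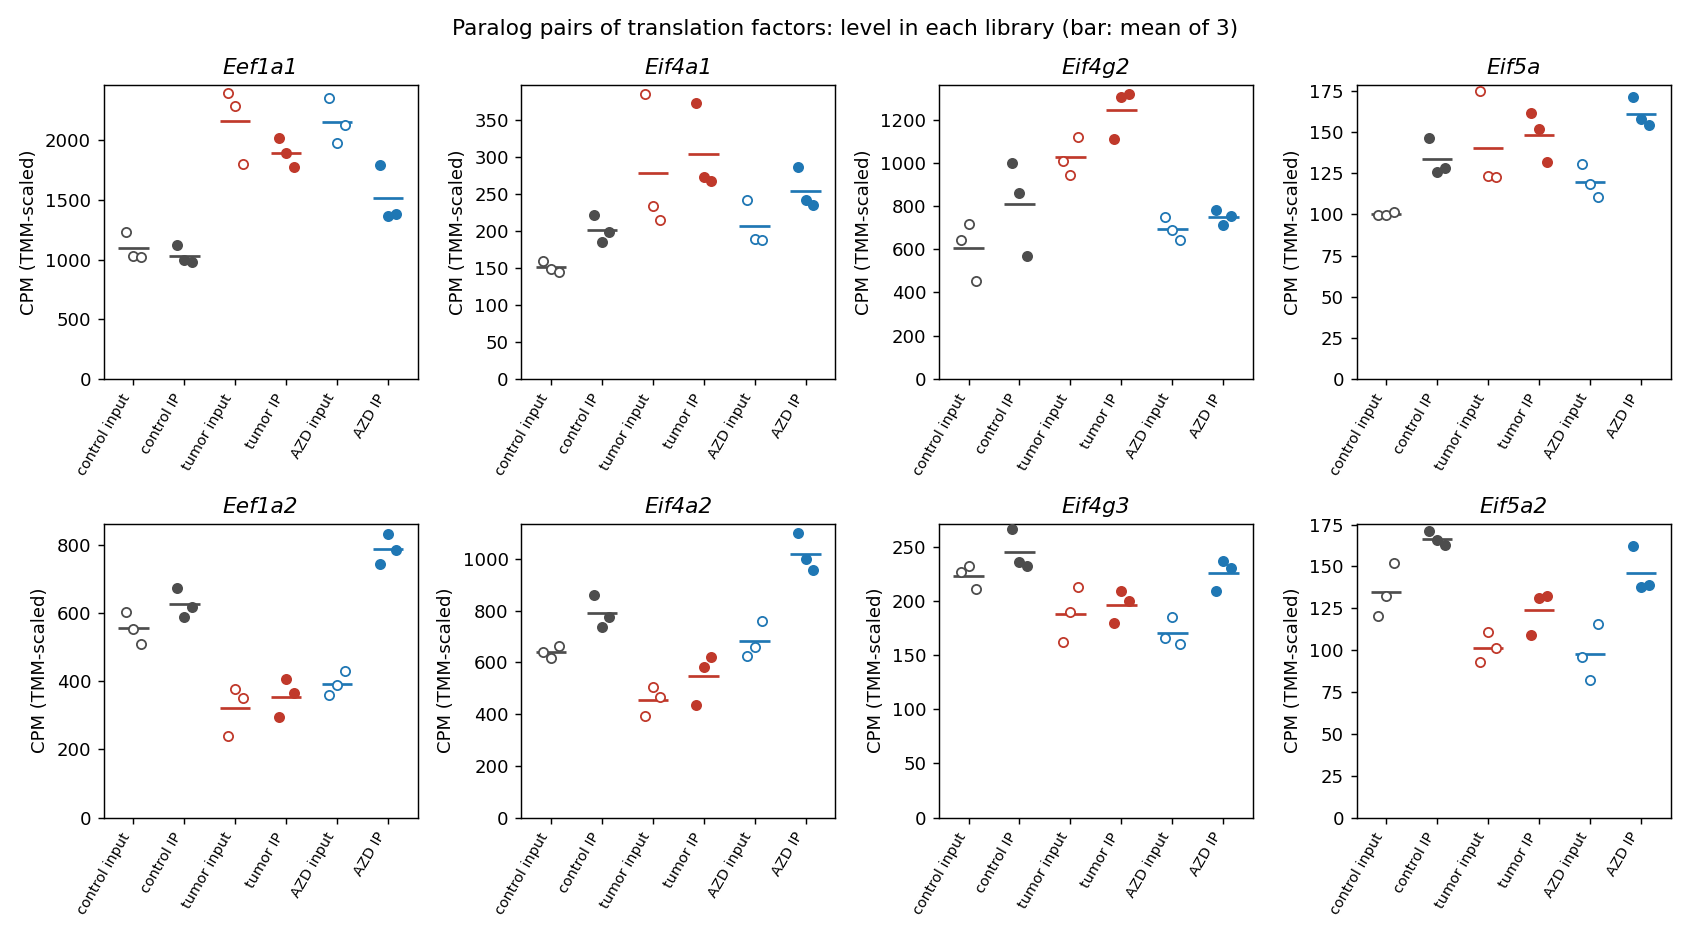
CPM in each of the 18 libraries for 8 genes of paired factors, with a bar at the mean of 3 libraries; open points are input and filled points IP. In IP, Eef1a2 fell to 295 to 406 CPM in tumor from 588 to 674 CPM in control and stood at 745 to 833 CPM with AZD, while its AZD input stayed at 359.9 to 429.6 CPM.

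Eef1a1, Eef1a2 and Eef2 are among 12 textbook TOP factors in the set, with Eef1b2, Eef1d, Eef1g, Eif3a, Eif3e, Eif3f, Eif3h, Eif4b and Pabpc1. The windows below show the pyrimidine run near the RefSeq gene start (GRCm38.p6) for 5 of these, since TOP mRNAs are the class most tied to mTOR. Capitals mark the longest run of C or T bases that begins with C and holds at least 7, searched on the gene's strand from 20 bases before to 50 bases after the start. Each window is 30 bases long and reads along the gene's strand.
Eef1a1 (chr9:78481708-78481737, minus strand): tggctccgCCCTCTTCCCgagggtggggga
Eef1a2 (chr2:181156977-181157006, minus strand): cactggttCTCTCCCTCgctccggtgcatc
Eif3a (chr19:60790644-60790673, minus strand): atcacgtggttCCTTCCTTTCCgtctctgg
Eif3f (chr7:108934403-108934432, plus strand): gttctaggCTCTCTCTCTTTCTCggcaaga
Eif4b (chr15:102073775-102073804, plus strand): ccgcgccaCCCCCTCgcgctgctttacgaa

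The Eef1a1 window holds a 10-base run and the Eef1a2 window a 9-base run, and the longest of the 5 is the 15-base run of Eif3f. Relative to the RefSeq gene start the runs begin at -5 (Eef1a1), 18 (Eef1a2), 32 (Eif3a), -4 (Eif3f) and 11 (Eif4b). Runs that begin after the start are not shown to open the mRNA. The promoter table held 47 of the 67 members. Eef2 also had such a run, which is not printed. No such run was found for Eef1b2, and the table did not list Eef1d, Eef1g, Eif3e, Eif3h and Pabpc1. Such a run was found in 21 of the 47 (44.7%), against 32.0% of all 27025 genes of the table, and the letters CACGTG, which read the same on both strands and are bound by the MYC family and related factors, occurred in 12 (25.5%) against 8.1% in windows from 250 bases before to 50 after the start. These are matches of letters and not mapped start sites. All genes of the promoter table formed the background, whether expressed here or not, while most members were expressed. The difference between these shares was not tested. Of the 12 TOP factors, 9 were higher and 1 lower in tumor than in control IP, with a median log2 fold of 0.49, beside 26.1% of all genes higher and 20.9% lower and a median of 0.02. Eef1a2 was the member that was lower. In AZD against tumor IP 1 was higher and 5 were lower (median -0.21), beside 25.1% of all genes higher and 33.5% lower (median -0.09). Of the 5, Eef1a1 and Eef1d lost the call with RLE size factors, and only Pabpc1 was also called lower in input. IP levels alone do not separate ribosome association from mRNA level. In the contrast of IP minus input for AZD against tumor, only Eef1a2 (0.85) and Eif3f (0.49) of the 12 were called, both higher. The call of Eif3f there was lost with plain library totals. In AZD against control IP 7 were higher and 0 lower (median 0.36), beside 16% of all genes higher and 17.4% lower (median 0.00). Their summed level was 3393 to 3808 CPM in control IP, 4527 to 4857 in tumor IP and 4400.4 to 4732 in AZD IP, so that the last 2 overlapped.

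The subunits of eIF3, the large scaffold that holds the small ribosomal subunit open for the mRNA, were mostly higher in tumor. In IP 8 of 12 tested subunits were higher and 0 lower, with a median log2 fold of 0.41, and the 12 lay between 0.22 and 0.81, beside 26.1% of all genes higher and 20.9% lower and a median of 0.02. Eif3l had 64.2, 59.5 and 60.8 CPM in control IP, 121, 93.4 and 101 CPM in tumor IP, and 103, 99.3 and 88.3 CPM in AZD IP. In input it had 72.2, 62.3 and 70.6 CPM in control input, 158, 115 and 104 CPM in tumor input, and 106, 104 and 104 CPM in AZD input. All tumor libraries stood above all control libraries in both fractions, at 0.81 ± 0.12 (adjusted p = 0.00032) in IP and 0.86 ± 0.15 (adjusted p = 0.00125) in input. Eif3e, which is also a TOP mRNA, had 105, 88.9 and 91.8 CPM in control IP, 171, 139 and 161 CPM in tumor IP, and 160.3, 141 and 134 CPM in AZD IP. Its tumor and AZD IP libraries all lay above control, with log2 folds of 0.76 ± 0.11 (adjusted p = 0.00043) and 0.61 ± 0.11 (adjusted p = 0.00258). The next highest in tumor IP were Eif3d at 0.69 ± 0.12, which binds the cap of some mRNAs directly, and Eif3h at 0.65 ± 0.11. Eif3c, Eif3f, Eif3g and Eif3k were not called in IP, at 0.28, 0.23, 0.22 and 0.23.

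With AZD the eIF3 subunits divided. Against tumor IP, 2 of 12 were higher and 3 lower, and against control IP 9 were higher and 0 lower, beside 25.1% of all genes higher and 33.5% lower in the first comparison and 16% of all genes higher and 17.4% lower in the second. The core subunits Eif3a and Eif3b were the lowest against tumor. Eif3b had 77.5, 73.4 and 72.2 CPM in control IP, 106, 96.3 and 89.3 CPM in tumor IP, and 55.8, 65.8 and 67.8 CPM in AZD IP, and every AZD IP library lay below every tumor IP library (-0.66 ± 0.10 (adjusted p = 0.00031)). Eif3a had 228, 189.7 and 192 CPM in control IP, 291, 261 and 235 CPM in tumor IP, and 191, 199 and 181 CPM in AZD IP, with AZD again below tumor throughout (-0.50 ± 0.11 (adjusted p = 0.00298)). Eif3k, a peripheral subunit, ran the other way, at 54.9, 43.96 and 45.7 CPM in control IP, 54.8, 54.6 and 55.99 CPM in tumor IP, and 88.4, 74.4 and 70.8 CPM in AZD IP. Its AZD IP libraries exceeded every tumor IP library, by 0.46 ± 0.11 (adjusted p = 0.00423). Eif3g, which was higher by 0.34 ± 0.09 (adjusted p = 0.00832), lost that call with plain library totals. Eif3f moved mainly in input, where AZD had 41.8, 42.4 and 40.7 CPM against 65.3, 64.5 and 64.5 CPM in tumor (-0.60 ± 0.10 (adjusted p = 0.00347)), with 45.5, 47.7 and 51.4 CPM in AZD IP.

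Genes of the cap-binding complex eIF4F and its partners were divided between the paired copies. In tumor against control IP 4 of 12 were higher and 4 lower, beside 26.1% of all genes higher and 20.9% lower. Eif4a1, Eif4a3, Eif4b and Eif4g2 were the ones that rose, and Eif4a2, Eif4e3, Eif4g3 and Eif4enif1 the ones that fell. Of the eIF4A helicases, Eif4a1, abundant in dividing cells, had 221, 184 and 198 CPM in control IP, 372, 273 and 268 CPM in tumor IP, and 286, 242 and 234 CPM in AZD IP. All 3 tumor IP libraries were above control, with replicate 1 far above the others, and the log2 fold was 0.63 ± 0.15 (adjusted p = 0.00554). Inputs were at 159.6, 148 and 145 CPM in control input, 385, 233 and 214 CPM in tumor input, and 242, 188 and 188 CPM in AZD input, a rise in tumor of 0.86 ± 0.21 (adjusted p = 0.00625). Eif4a2, the copy prominent in brain and muscle, had 862, 738 and 774 CPM in control IP, 436, 580.3 and 621 CPM in tumor IP, and 1100.4, 999.6 and 958 CPM in AZD IP. Tumor IP lay below control IP and AZD IP without overlap, at -0.51 ± 0.13 (adjusted p = 0.00861) against control, with AZD over tumor at 0.87 ± 0.13 (adjusted p = 0.000224). In input the values were 639, 616 and 662 CPM in control input, 393, 503 and 467 CPM in tumor input, and 623, 659.6 and 759.9 CPM in AZD input, and both differences were called there too, at -0.51 ± 0.12 (adjusted p = 0.00673) and 0.62 ± 0.12 (adjusted p = 0.00762). Eif4a3, the helicase of the exon junction complex, rose by 0.67 ± 0.11 (adjusted p = 0.000666) in tumor IP.

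Eif4e itself, the cap-binding protein that mTOR frees, was not called in tumor against control. It had 145, 136 and 139 CPM in control IP, 157, 138 and 144 CPM in tumor IP, and 161, 138 and 137 CPM in AZD IP, and the log2 fold was 0.10 ± 0.10 (adjusted p = 0.434). Its relative Eif4e2, which competes for the cap and can repress translation, had 49.3, 48.4 and 50.1 CPM in control IP, 51.2, 50.2 and 54.1 CPM in tumor IP, and 65.1, 65.8 and 61.8 CPM in AZD IP. Eif4e2 was higher with AZD than in tumor in IP (0.27 ± 0.08 (adjusted p = 0.00961)) and in input (0.33 ± 0.09 (adjusted p = 0.0313)), and the call in IP was lost with plain library totals. Eif4e3, a cap-binding relative, was low throughout, with 21.7, 20.98 and 20.8 CPM in control IP, 12.4, 16.3 and 14.4 CPM in tumor IP, and 15.6, 17.3 and 21.8 CPM in AZD IP. It fell in tumor by 0.53 ± 0.14 on the log2 scale in IP (adjusted p = 0.00911), and in input from 24.7, 27.04 and 27.2 CPM to 10.4, 15.96 and 17.2 CPM, a log2 fold of -0.88 ± 0.18 (adjusted p = 0.00266); AZD input held 18.01, 21.2 and 21.9 CPM. Eif4enif1, which carries eIF4E into the nucleus, had 68.2, 66.7 and 63.5 CPM in control IP, 53.3, 54.9 and 54.4 CPM in tumor IP, and 60.6, 70.2 and 64.5 CPM in AZD IP. Its IP values were -0.25 ± 0.08 (adjusted p = 0.0241) for tumor over control and 0.23 ± 0.08 (adjusted p = 0.03) for AZD over tumor, both lost with plain library totals.

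Of the eIF4G scaffolds, Eif4g1 had 370.4, 308 and 324 CPM in control IP, 343, 341 and 330.1 CPM in tumor IP, and 325, 349 and 309 CPM in AZD IP, and tumor and control did not differ by the test (0.05 ± 0.10 (adjusted p = 0.696)). Eif4g2 encodes a shortened relative, DAP5, that does not bind eIF4E. It had 1001, 862 and 570.0 CPM in control IP, 1109, 1304 and 1318 CPM in tumor IP, and 782, 711 and 753 CPM in AZD IP. Tumor IP stood above both other conditions without overlap, at 0.65 ± 0.17 (adjusted p = 0.0102) against control and with AZD at -0.77 ± 0.17 (adjusted p = 0.00299) against tumor. Inputs held 643, 716 and 454 CPM in control input, 1009, 945 and 1122 CPM in tumor input, and 748, 688 and 644 CPM in AZD input, and control replicate 3 was the lowest library in both fractions. Eif4g3 had 266, 236 and 232 CPM in control IP, 179.8, 209 and 199 CPM in tumor IP, and 209, 237 and 229.9 CPM in AZD IP, and its tumor IP value of -0.29 ± 0.09 (adjusted p = 0.0236) was not called with plain library totals. Eif4b, which stimulates eIF4A and is a TOP mRNA, rose in tumor IP by 0.33 ± 0.10 (adjusted p = 0.016), and Eif4h, a relative of it, was -0.06 ± 0.10 (adjusted p = 0.672). In AZD against tumor IP 4 of these 12 genes were higher and 1 lower, the lower being Eif4g2. Of all genes, 25.1% were higher and 33.5% lower there.

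The eIF2 complex and its exchange factor eIF2B differed in where they moved. Eif2s2, the beta subunit, rose in tumor, with 45.9, 39.2 and 42.2 CPM in control IP, 89.9, 65.999 and 63.5 CPM in tumor IP, and 59.3, 51.7 and 49.2 CPM in AZD IP. Its log2 fold in tumor over control was 0.82 ± 0.15 (adjusted p = 0.00115) in IP and 1.08 ± 0.17 (adjusted p = 0.000642) in input, the highest among the members called in input, and AZD over tumor was -0.49 ± 0.15 (adjusted p = 0.0132) in IP. Eif2s1, the alpha subunit phosphorylated in the stress response, was 0.17 ± 0.14 (adjusted p = 0.338) in IP and 0.39 ± 0.14 (adjusted p = 0.0407) in input. The gamma subunit comes from the X-linked Eif2s3x and the Y-linked Eif2s3y, and Eif2s3y was counted in all 18 libraries. Eif2s3x had 27.8, 27.7 and 25.1 CPM in control IP, 36.4, 30.5 and 33.3 CPM in tumor IP, and 42.2, 36.7 and 35.3 CPM in AZD IP and Eif2s3y 26.9, 17.4 and 33.7 CPM in control IP, 37.4, 42.99 and 33.4 CPM in tumor IP, and 42.5, 28.8 and 27.4 CPM in AZD IP. Eif2s3x was higher in tumor than in control IP (0.35 ± 0.11 (adjusted p = 0.0227)), and Eif2s3y was at 0.57 ± 0.23 (adjusted p = 0.0624), not called. Eif2a and Eif2d, which can deliver initiator tRNA without eIF2, were at 0.18 and 0.14 in tumor over control IP, and Eif2d was 0.41 ± 0.12 (adjusted p = 0.0108) in AZD over tumor IP, a call that plain library totals removed.

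No subunit of eIF2B was called in tumor against control (0 of 5 higher and 0 lower in IP, median 0.07), and 3 of the 5 had an input value under 0.2 in size. Of all genes, 26.1% were higher and 20.9% lower in tumor against control IP. With AZD, 4 of 5 were higher than in tumor IP and all 5 were higher than in control IP, beside 25.1% and 16% of all genes. Eif2b5, the catalytic subunit, had 72.4, 65.7 and 66.7 CPM in control IP, 61.9, 62.2 and 69.4 CPM in tumor IP, and 88.8, 87.8 and 84.3 CPM in AZD IP, and AZD IP lay above the other 2 conditions without overlap. Its log2 fold was 0.40 ± 0.08 (adjusted p = 0.00166) for AZD over tumor. Eif2b1, the regulatory alpha subunit, had 22.7, 20.9 and 23.2 CPM in control IP, 28.7, 22.3 and 24.7 CPM in tumor IP, and 39.3, 35.9 and 32.8 CPM in AZD IP, again with AZD IP above (0.47 ± 0.12 (adjusted p = 0.00653)). Eif2b2 had 21.2, 20.7 and 20.2 CPM in control IP, 23.4, 18.1 and 22.1 CPM in tumor IP, and 26.7, 30.3 and 33.7 CPM in AZD IP, and AZD over tumor was 0.48 ± 0.12 (adjusted p = 0.00694). The 5 genes together gave 144 to 159.7 CPM in control IP, 143 to 162 in tumor IP and 202 to 211 in AZD IP, against 137 to 154, 145 to 161 and 147 to 168 in input. In input 0 of 5 were called between tumor and control or between AZD and tumor, and 1, Eif2b4, was higher in AZD than in control. Of all genes, 48.1% were called in tumor against control input and 17.1% in AZD against tumor input. In AZD against control input 20.7% of all genes were higher. With plain library totals the calls of Eif2b1, Eif2b2 and Eif2b4 against tumor IP were lost and that of Eif2b5 was kept.

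Among the scanning factors eIF1 and eIF1A, 2 of 5 genes were higher in tumor than in control IP, beside 26.1% of all genes higher. Eif1b, a close copy of Eif1, had 50.8, 47.3 and 50.1 CPM in control IP, 68.7, 62.9 and 71.3 CPM in tumor IP, and 83.7, 71.97 and 69.8 CPM in AZD IP. Tumor and AZD IP libraries all lay above control, at 0.49 ± 0.10 (adjusted p = 0.00207) and 0.60 ± 0.10 (adjusted p = 0.00102). Eif1, which guards start codon choice, had 68.3, 61.8 and 61.3 CPM in control IP, 53.7, 65.5 and 52.8 CPM in tumor IP, and 58.5, 54.3 and 58.97 CPM in AZD IP, and its tumor IP value was -0.12 ± 0.10 (adjusted p = 0.322). In input Eif1 had 42.4, 41.5 and 39.9 CPM in control input, 45.1, 42.1 and 40.7 CPM in tumor input, and 32.7, 27.8 and 32.02 CPM in AZD input. AZD input lay below tumor input without overlap (-0.43 ± 0.10 (adjusted p = 0.0201)). Eif1a had 72.4, 67.5 and 66.8 CPM in control IP, 115, 73.8 and 72.6 CPM in tumor IP, and 95.1, 80.5 and 74.9 CPM in AZD IP, its tumor mean carried by replicate 1, and the X-linked copy Eif1ax had 105, 97.5 and 98.1 CPM in control IP, 100.4, 98.7 and 104 CPM in tumor IP, and 133, 119 and 115 CPM in AZD IP. Eif1ad, an eIF1A-like gene, rose by 0.42 ± 0.14 (adjusted p = 0.0297) in tumor IP, a call lost with RLE size factors.

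The late initiation factors Eif5 and Eif5b were at -0.07 ± 0.10 and -0.03 ± 0.08 in tumor over control IP, neither called, and Eif6, which keeps free large ribosomal subunits apart, rose by 0.43 ± 0.16 (adjusted p = 0.0416), a call lost with RLE size factors. eIF5A, the hypusine-carrying factor that helps ribosomes past difficult peptide bonds, comes from a widely expressed gene and a copy, Eif5a2. Eif5a had 147, 126 and 128 CPM in control IP, 162, 152 and 132 CPM in tumor IP, and 171, 158 and 154 CPM in AZD IP. In input it had 99.5, 99.6 and 101 CPM in control input, 175, 123 and 123 CPM in tumor input, and 131, 118 and 111 CPM in AZD input, and tumor over control was 0.19 ± 0.11 (adjusted p = 0.168) in IP and 0.47 ± 0.14 (adjusted p = 0.0196) in input. Eif5a2 had 171, 166 and 163 CPM in control IP, 109, 131 and 132 CPM in tumor IP, and 162, 138 and 139 CPM in AZD IP. Control IP lay above tumor IP throughout, and the log2 fold was -0.39 ± 0.10 (adjusted p = 0.00756) in IP and -0.43 ± 0.14 (adjusted p = 0.0264) in input, the latter lost with plain library totals.

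The cytoplasmic poly(A)-binding proteins link the tail of an mRNA to eIF4G. Pabpc1 (chr15:36595658-36609581), the main one and a TOP mRNA, had 73.95, 67.8 and 70.9 CPM in control IP, 135, 129 and 120.0 CPM in tumor IP, and 83.8, 77.8 and 79.5 CPM in AZD IP. Tumor IP stood above both other conditions without overlap, at 0.89 ± 0.09 (adjusted p = 1.75e-05) against control, the smallest adjusted p of the members, and AZD over tumor was -0.71 ± 0.09 (adjusted p = 5.13e-05). Its inputs held 49.1, 55.4 and 59.5 CPM in control input, 94.7, 78.5 and 98.4 CPM in tumor input, and 73.6, 54.7 and 54.6 CPM in AZD input, with 0.71 ± 0.14 (adjusted p = 0.00277) for tumor over control and -0.53 ± 0.14 (adjusted p = 0.0299) for AZD over tumor. Pabpc5, an X-linked copy, had 10.1, 8.13 and 8.97 CPM in control IP, 15.6, 14.9 and 17.2 CPM in tumor IP, and 9.32, 10.2 and 9.42 CPM in AZD IP. It showed the same order of conditions in IP, at 0.84 ± 0.12 (adjusted p = 0.000349) and -0.75 ± 0.12 (adjusted p = 0.000414), but its inputs were 4.45, 6.37 and 6.24 CPM in control input, 11.8, 8.21 and 10.5 CPM in tumor input, and 12.1, 8.42 and 11.5 CPM in AZD input. AZD over tumor input was 0.11 ± 0.21 (adjusted p = 0.747), and the difference between fractions was called at -0.81 ± 0.24 (adjusted p = 0.0165). Pabpc4, the inducible form, had 20.8, 18.96 and 19.2 CPM in control IP, 22.4, 18.7 and 21.6 CPM in tumor IP, and 18.9, 14.9 and 13.1 CPM in AZD IP and was 0.12 ± 0.14 (adjusted p = 0.51) in tumor over control IP.

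The Argonautes under their old Eif2c symbols are not translation factors and are given apart. All 4 were lower in AZD IP than in tumor IP, the range of log2 folds running from -1.23 to -0.27. Of all genes, 33.5% were lower and 25.1% higher in that comparison. Eif2c4 had 17.4, 21.1 and 22.3 CPM in control IP, 22.03, 31.9 and 32.6 CPM in tumor IP, and 9.32, 12.9 and 15.2 CPM in AZD IP, and AZD over tumor was -1.23 ± 0.19 (adjusted p = 0.000292). In input it had 19.6, 21.6 and 27.5 CPM in control input, 22.8, 28.3 and 28.7 CPM in tumor input, and 17.2, 27.6 and 21.2 CPM in AZD input, and the difference between fractions was called at -0.93 ± 0.29 (adjusted p = 0.0199). Eif2c2, which encodes the slicing Argonaute, was -0.27 ± 0.10 (adjusted p = 0.0463) in IP, a call lost with RLE size factors.

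Counted over the set, AZD against tumor gave a mixed picture in IP and few calls in input. In IP 13 of 61 tested members were higher and 16 lower, 47.5% against 58.7% of all genes (25.1% higher, 33.5% lower), a share below that of all genes by a difference that was not tested; the median was -0.04 for members and -0.09 for all genes. How many calls fell on each side depended on scaling, while no call changed sign. RLE size factors gave 18 higher and 12 lower, and plain library totals, which moved the median of all genes from -0.09 to -0.23, gave 4 higher and 22 lower. In input 2 of 62 were higher (Eif4a2 and Eif4e2) and 5 lower (Eif1, Eif2c3, Eif3f, Eif4g1 and Pabpc1), 11.3% against 17.1% of all genes (7.89% higher, 9.17% lower), and leaving out a library of AZD input left 4 (replicate 1), 2 (replicate 2) or 3 (replicate 3) calls. In IP 11 of the 61 tested members were called both higher in tumor than in control and lower in AZD than in tumor, beside 20.8% of all genes. Among them were Eef1a1, Eef1d, Eif2s2, Eif3a, Eif3b, Eif4g2, Pabpc1 and Pabpc5. Another 3, Eef1a2, Eif4a2 and Eif4enif1, were lower in tumor and higher with AZD (4.92%, beside 14.8% of all genes), and 0 were called in the same direction both times; both comparisons use the same tumor libraries, so opposite calls in the 2 are not independent of each other.

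**Figure D3:**
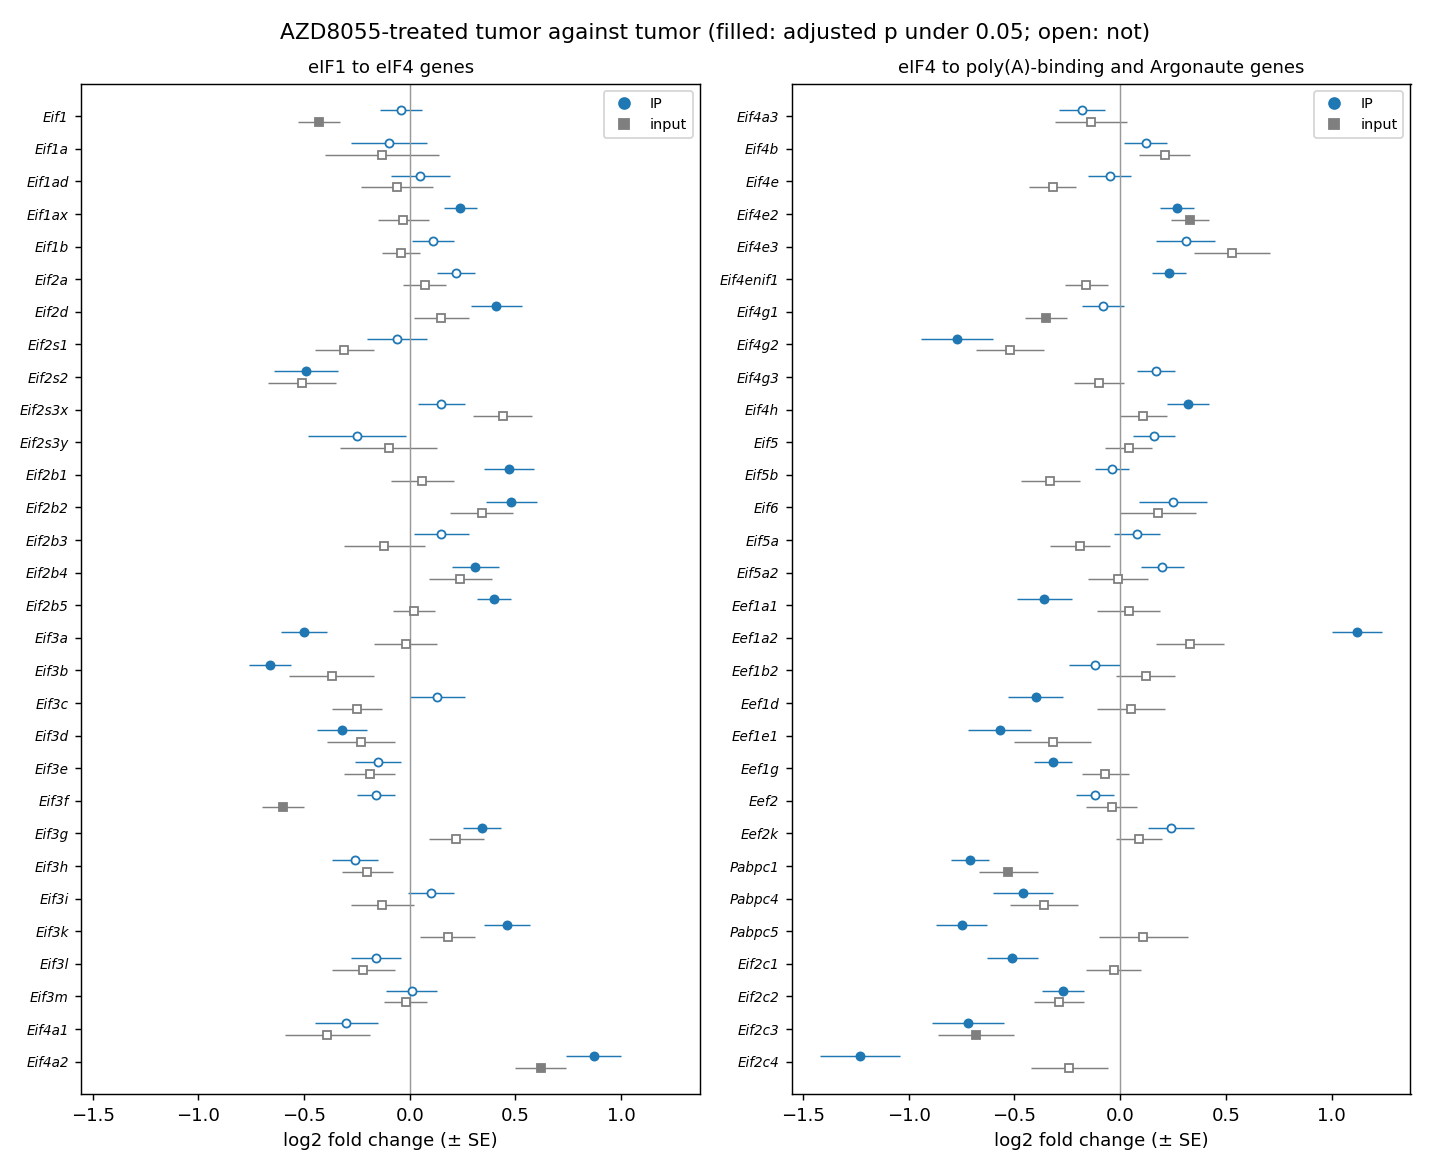
Log2 fold change (± SE) of AZD-treated tumor against tumor for the 60 members with a mean of at least 1 CPM, in IP (blue circles) and input (grey squares), filled where the adjusted p is under 0.05. In IP Eef1a2 (1.12) and Eif4a2 (0.87) lie farthest right and Eif2c4 (-1.23) farthest left, and most grey squares are open.

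Against control, AZD IP libraries still held more of many factors. 29 of 61 members were higher and 3 lower in AZD IP, 52.5% against 33.3% of all genes (16% higher, 17.4% lower), with a median of 0.33 against 0.00. The 3 lower were the Argonautes Eif2c2, Eif2c3 and Eif2c4, so that 0 of the other members were called lower. The highest were Eif2b1 and Eif3k at 0.69, Eif6 at 0.68, Eif3l at 0.65, and Eef2k and Eif3e at 0.61. Without control IP replicate 2 the count of calls was 19, and without replicate 3 it was 20. In input 22 of 62 were higher and 7 lower, 46.8% against 36.8% of all genes, and plain library totals gave 25 higher and 2 lower. The 7 lower were Eef1a2, Eif1, Eif2c2, Eif2c3, Eif4enif1, Eif4g3 and Eif5a2. Among the higher was Pabpc1l, an oocyte form of poly(A)-binding protein, at under 1 CPM in every library (0.191, 0.166 and 0 CPM in control input and 0.862, 0.886 and 0.552 CPM in AZD input). Leaving out AZD input replicate 1, control input replicate 2 or control input replicate 3 gave 14, 13 and 15 calls.

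Because the copies of a factor are measured in the same library, their log2 ratio hardly depends on how libraries are scaled; the ratio's own size depends on gene length, so only its differences between groups are given. For Eef1a2 over Eef1a1 the IP ratio was -0.73, -0.76 and -0.66 in control libraries, -2.77, -2.22 and -2.28 in tumor libraries and -1.27, -0.71 and -0.82 in AZD libraries. Tumor lay below both without overlap, at -1.71 ± 0.18 from control (difference of mean log2 ratios ± SE), with a mean 2.82 times as high with AZD as in tumor, while AZD and control overlapped. In input the ratio was -1.03, -0.89 and -1.01, -3.32, -2.60 and -2.36 and -2.71, -2.35 and -2.31 in the same order of conditions, so that AZD overlapped tumor there and not control. Eif4a2 over Eif4a1 in IP ran at 1.96, 2.00 and 1.96 for control, 0.23, 1.09 and 1.21 for tumor and 1.94, 2.04 and 2.03 for AZD. Its input ratio was 2.00, 2.06 and 2.19, 0.03, 1.11 and 1.12 and 1.36, 1.81 and 2.02 in the same order. For this pair tumor was below AZD in both fractions, by 1.16 ± 0.31 in IP and 0.97 ± 0.41 in input.

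The pair Eif1b over Eif1 rose in tumor IP by 0.61 ± 0.16 and in AZD IP by 0.75 ± 0.09 against control, and Pabpc4 over Pabpc1 differed by -0.77 ± 0.09 in tumor IP. Tumor IP differed from control IP by -0.58 ± 0.18 for Eif5a2 over Eif5a, -0.34 ± 0.08 for Eif4g3 over Eif4g1, 0.63 ± 0.24 for Eif4g2 over Eif4g1 and -0.61 ± 0.17 for Eif4e3 over Eif4e. Eif4e2 over Eif4e overlapped between tumor and control IP (0.01 ± 0.07), as did Eif2s3y over Eif2s3x (0.27 ± 0.35). Eif1ax over Eif1a, at -0.29 ± 0.22, did not overlap. The 11 pairs and 9 comparisons gave 99 ratio differences. An exact permutation test of 3 libraries against 3 cannot go below p = 0.1, which adjusts to 0.168 over the 99, so none of the ratios can pass 0.05 by that test.

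**Figure D4:**
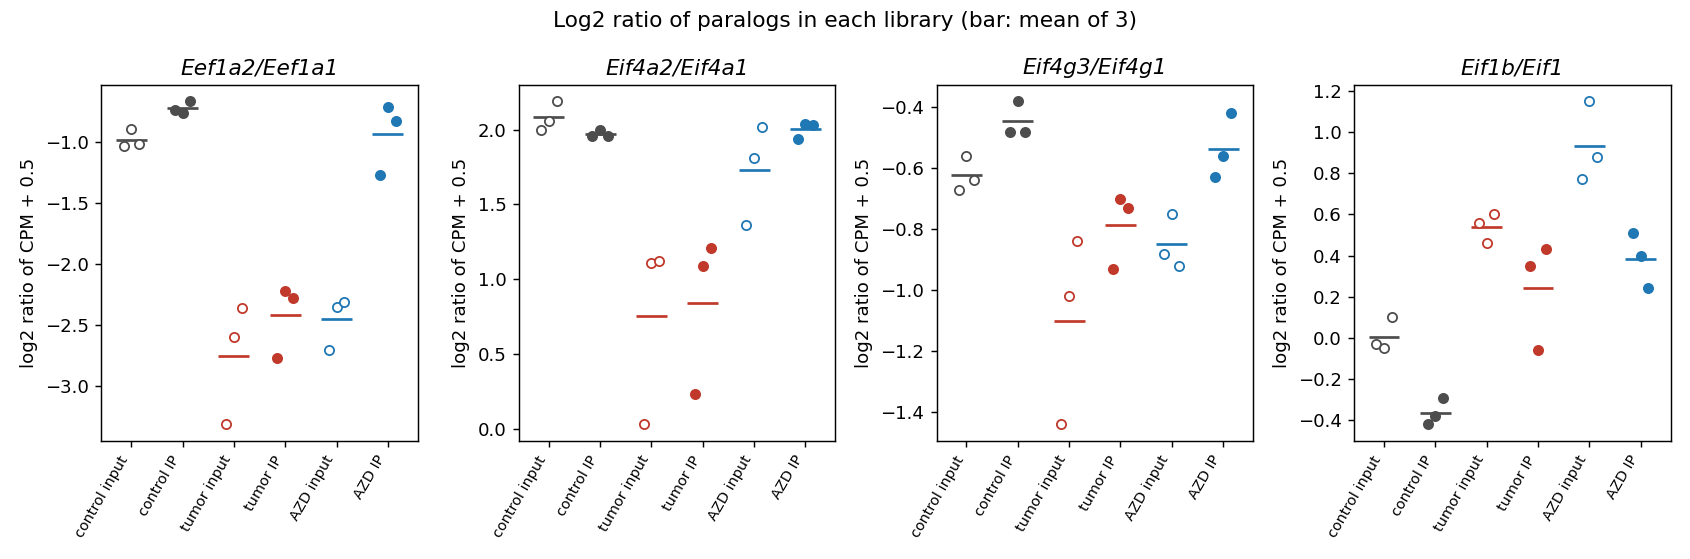
Log2 ratio of the CPM (plus 0.5) of 4 pairs of copies in each of the 18 libraries, with a bar at the mean of 3; open points are input and filled points IP. For Eef1a2/Eef1a1 the AZD IP mean is -0.93, near control IP at -0.72, while the AZD input mean is -2.46, near tumor input at -2.76.

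IP was set against input within each condition to see which factor mRNAs were over- or under-represented in the IP fraction. In control 20 of 61 tested members were higher in IP and 3 lower, 37.7% against 36.5% of all genes (17.7% higher, 18.8% lower), with a median of 0.15 against -0.02. Plain library totals gave 15 higher and 7 lower. With AZD 25 of 62 were higher and 6 lower, 50% against 61.5% of all genes (29% higher, 32.5% lower), and plain library totals, which moved the median of all genes from -0.02 to -0.30, turned this into 6 higher and 12 lower. Among the 6 lower under the main scaling was Pabpc1l (-1.34), which stayed under a mean of 1 CPM and was not tested in control or tumor. In tumor 0 of 61 were called, against 5.09% of all genes (2.11% higher, 2.98% lower); 12 had an unadjusted p under 0.05, and DESeq2 called 4. With the replicate number as a block, which takes out what IP and input of a number share, 22 members were called in tumor, 18 higher and 4 lower, beside 35.6% of all genes (17.6% higher, 18.1% lower). Pabpc1 was then higher in tumor IP by 0.51 ± 0.09 (adjusted p = 5.31e-05), Pabpc5 by 0.66 ± 0.12 (adjusted p = 0.000108) and Eif1 by 0.43 ± 0.09 (adjusted p = 0.000473), and Eif2s3y was lower at -0.56 ± 0.09 (adjusted p = 1.95e-05). Cell-type markers also differed between IP and input. With AZD all 10 excitatory neuron markers were higher in IP than in input (median log2 fold 1.37), while 8 of 8 astrocyte markers (median -2.15), 7 of 8 microglia markers (median -2.52) and 8 of 8 glioma lineage markers (median -2.42) were lower. In control 6 of 10 excitatory neuron markers and 2 of 8 astrocyte markers were higher in IP (medians 0.31 and -0.04), and 2 of 8 microglia and 3 of 8 glioma lineage markers were lower (medians -0.19 and -0.36). In tumor 3 of 8 glioma lineage markers were lower (median -0.38) and no neuron, astrocyte or microglia marker was called, with medians of 0.35 for excitatory neurons, 0.00 for astrocytes and -0.16 for microglia. The part of these markers in the IP over input values of the factors was not tested.

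Taken pair by pair, with IP and input of the same number, 17 of the 60 members with a mean of at least 1 CPM were higher in IP in all 9 pairs and 3 were lower in all 9, which is 28.3% and 5.0% of them beside 17.7% and 16.4% of all 14205 genes at that level. The 17 were Eef1a2, Eef1e1, Eif1, Eif1a, Eif1ax, Eif1b, Eif2b2, Eif2c2, Eif3g, Eif4a2, Eif4b, Eif4e, Eif4g2, Eif4h, Eif5a2, Eif6 and Pabpc1, and the 3 were Eef1a1, Eif2s3y and Eif3l. Eif1 had log2 ratios of IP over input of 0.68, 0.57 and 0.61 for the control pairs, 0.25, 0.63 and 0.37 for the tumor pairs and 0.83, 0.95 and 0.87 for the AZD pairs. For Eef1a2 they were 0.16, 0.09 and 0.28, 0.31, 0.11 and 0.05 and 1.05, 1.10 and 0.87 in the same order, so the AZD pairs all lay above the other 6. Eef1a1 ran at -0.14, -0.05 and -0.06, -0.24, -0.27 and -0.02 and -0.39, -0.54 and -0.63, the AZD pairs all lowest. Eif2s3y was at -0.87, -0.72 and -0.75, -0.64, -0.61 and -0.41 and -0.51, -0.68 and -0.75, below 0 in every pair.

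**Figure D5:**
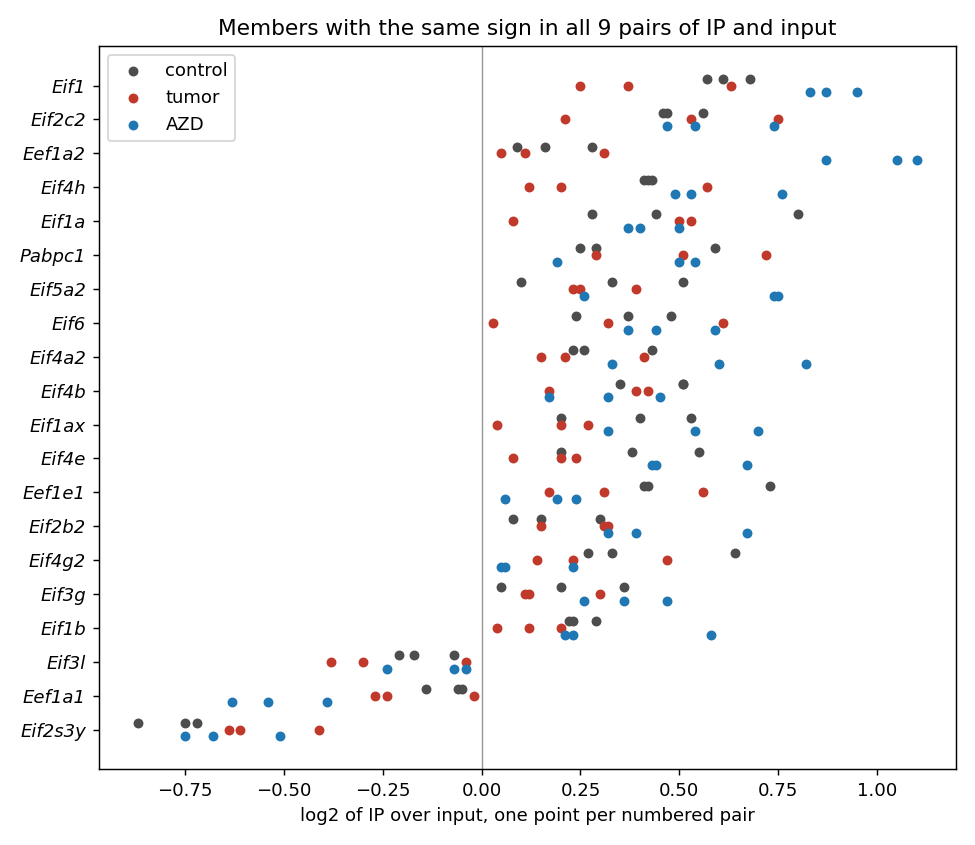
Log2 of IP over input for each of the 9 numbered pairs of libraries (grey control, red tumor, blue AZD) for the 20 members with the same sign in all pairs. 17 genes lie right of 0 and 3 left of it, and the AZD pairs of Eef1a2 stand apart on the right.

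The difference between fractions in the effect of a condition was tested as IP minus input. For tumor against control 0 of 62 members were called, 0 had an unadjusted p under 0.05 and DESeq2 called 0, while 0.0687% of all genes were called (0.05% higher and 0.0187% lower). For Eef1a1 this difference was -0.09 ± 0.19, for Eef1a2 -0.02 ± 0.21 and for Pabpc1 0.14 ± 0.17 on the log2 scale. Differences well above the size of those errors could also be missed with these libraries. In simulated data for this contrast, 3% of log2 changes of 0.5 and 39.8% of log2 changes of 1 were called. The absence of calls therefore does not show that the fractions changed alike. For AZD against tumor 5 members were higher and 2 lower, 11.3% against 33.1% of all genes. The higher ones were Eef1a2, Eif1, Eif2b5, Eif3f and Eif4enif1 and the lower ones Eif2c4 and Pabpc5. With the replicate block 20 were called, 14 higher and 6 lower, beside 50.1% of all genes (21.8% higher, 28.4% lower), and with plain library totals 1 was higher and 4 lower, Eif1, Eif2b5, Eif3f and Eif4enif1 being lost.

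Genes that control the factors were described from lists outside the set. Of regulators of eIF4F, 5 of 18 were higher and 3 lower in tumor than in control IP, and 3 higher and 6 lower in AZD than in tumor IP. The counts of these lists stand beside 47% of all genes called in tumor against control IP (26.1% higher, 20.9% lower) and 58.7% in AZD against tumor IP (25.1% higher, 33.5% lower), and none of them is read as particular to its list. Eif4ebp1, a binding protein that blocks eIF4E until mTOR phosphorylates it, had 1.47, 1.78 and 2.14 CPM in control IP, 12.1, 5.58 and 5.35 CPM in tumor IP, and 2.13, 1.56 and 1.69 CPM in AZD IP, with tumor above both others. Its log2 fold was 2.12 ± 0.34 (adjusted p = 0.000637) for tumor over control and -2.15 ± 0.35 (adjusted p = 0.000378) for AZD over tumor. Eif4ebp2, the form most studied in neurons, had 6.77, 6.95 and 6.43 CPM in control IP, 9.34, 11.6 and 9.58 CPM in tumor IP, and 4.905, 5.02 and 5.98 CPM in AZD IP, in the same order, at 0.63 ± 0.14 (adjusted p = 0.00444) and -0.97 ± 0.15 (adjusted p = 0.000234). Cyfip2, a partner of the fragile X protein, and Pdcd4, which holds eIF4A inactive, fell in tumor by 0.90 and 0.49 and were 1.02 and 0.65 higher with AZD. Larp1, the repressor of TOP mRNAs, was -0.30 ± 0.10 (adjusted p = 0.0287) in tumor and 0.01 ± 0.10 (adjusted p = 0.93) with AZD against tumor.

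Of 11 genes around eIF2 phosphorylation, 4 were higher and 2 lower in tumor IP, and 3 higher and 5 lower with AZD against tumor. Eif2ak2 (PKR), the kinase that responds to double-stranded RNA, had 9.997, 10.2 and 12.5 CPM in control IP, 49.1, 26.3 and 30.01 CPM in tumor IP, and 7.36, 9.596 and 7.52 CPM in AZD IP, a tumor over control fold of 1.72 ± 0.23 (adjusted p = 0.000204). Eif2ak3 (PERK), the kinase of the endoplasmic reticulum, had 40.7, 40.1 and 37.99 CPM in control IP, 65.8, 61.2 and 56.3 CPM in tumor IP, and 43.7, 43.9 and 41.8 CPM in AZD IP and rose in tumor by 0.66 ± 0.09 (adjusted p = 0.00022). Eif2ak4 (GCN2), which senses uncharged tRNA, was -0.22 ± 0.10 (adjusted p = 0.106) in tumor and -0.42 ± 0.11 (adjusted p = 0.00532) with AZD against tumor. Both subunits that direct the phosphatase to eIF2, Ppp1r15a and Ppp1r15b, rose in tumor IP, by 0.96 ± 0.19 and 1.03 ± 0.09, and Impact, a neuronal inhibitor of GCN2, was -0.73 ± 0.13 (adjusted p = 0.00135). Of 10 genes of the mTOR complexes and their upstream regulators Rheb, Tsc1 and Tsc2, 1 was higher and 3 were lower in tumor IP, with 5 higher and 1 lower with AZD against tumor. Mtor itself had 99.9, 125 and 92.9 CPM in control IP, 75.7, 79.8 and 80.1 CPM in tumor IP, and 95.2, 113 and 106 CPM in AZD IP, at -0.40 ± 0.12 (adjusted p = 0.0164) in tumor and 0.39 ± 0.12 (adjusted p = 0.0157) with AZD, and the inhibitory partner Deptor was -0.70 and 1.00.

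Of 7 enzymes that modify eIF5A or eEF2, 2 were higher and 1 lower in tumor IP, with Dnajc24 and Dph3 of the diphthamide pathway at 0.87 and 0.53 and Dohh, which completes hypusine on eIF5A, at -0.32; with AZD 3 were higher and 1 lower than in tumor. Of 11 genes of termination, recycling and ribosome rescue, 4 were higher and 1 lower in tumor IP, and 3 higher and 2 lower with AZD. The release factor copies Gspt1 and Gspt2 ran in opposite directions, at 0.30 ± 0.10 and -0.39 ± 0.10 in tumor and -0.44 ± 0.10 and 0.64 ± 0.10 with AZD against tumor. Mitochondrial translation factors gave 2 of 10 higher and 0 lower in tumor IP and 2 higher and 2 lower with AZD, and Tufm, the mitochondrial counterpart of eEF1A, was at -0.20 ± 0.16 (adjusted p = 0.325). Of 3 other cytosolic factors 1 was higher, Tpt1, a TOP mRNA, at 0.64 ± 0.12 (adjusted p = 0.00184), and 0 were called with AZD against tumor.

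Some of these calls were lost when 1 library or another was left out. In tumor against control IP 20 of 32 calls were also made under every alternative tried, among them those of Eef1a1, Eef1a2, Eef1d, Eif2s2, Eif3l, Eif4a1, Eif4a2, Eif4e3, Eif4g2 and Pabpc1. Those lost when 1 library was left out are given here with the library's replicate number and the range over all alternatives. Eef2 (without control IP 2 or 3) had log2 folds of 0.23 to 0.38 and Eef2k (without control IP 1 or tumor IP 1) had log2 folds of 0.25 to 0.46. Eif1ad (without control IP 2 or 3 or tumor IP 1) had log2 folds of 0.26 to 0.52 and Eif2c4 (without control IP 1 or 2 or tumor IP 2 or 3) had log2 folds of 0.43 to 0.69. Eif2s3x (without control IP 1 or 3 or tumor IP 1) had log2 folds of 0.27 to 0.44 and Eif3a (without control IP 2 or 3) had log2 folds of 0.30 to 0.50. Eif3m (without control IP 2 or 3) had log2 folds of 0.35 to 0.50 and Eif4b (without control IP 2 or tumor IP 3) had log2 folds of 0.28 to 0.42. Eif4enif1 (without control IP 1 or 2 or tumor IP 2 or 3) had log2 folds of -0.31 to -0.16 and Eif4g3 (without control IP 1 or tumor IP 1) had log2 folds of -0.34 to -0.20. Eif6 (without control IP 1 or 2 or 3 or tumor IP 1 or 3) had log2 folds of 0.26 to 0.55. In AZD against tumor IP 14 of 29 calls were made under every alternative, among them those of Eef1a2, Eif2b5, Eif3b, Eif3k, Eif4a2, Eif4g2 and Pabpc1. Lost there without 1 library were the following. Eef1a1 (without AZD IP 2 or 3 or tumor IP 1 or 2) had log2 folds of -0.50 to -0.28 and Eef1d (without AZD IP 3 or tumor IP 1) had log2 folds of -0.54 to -0.24. Eif1ax (without AZD IP 1 or 2 or tumor IP 2 or 3) had log2 folds of 0.10 to 0.31 and Eif2b4 (without AZD IP 2 or tumor IP 1 or 2) had log2 folds of 0.18 to 0.39. Eif2c2 (without AZD IP 1 or 3 or tumor IP 2 or 3) had log2 folds of -0.40 to -0.16 and Eif2s2 (without AZD IP 3) had log2 folds of -0.64 to -0.30. Eif3d (without AZD IP 2 or 3 or tumor IP 1 or 3) had log2 folds of -0.46 to -0.20 and Eif4enif1 (without AZD IP 2 or 3 or tumor IP 2 or 3) had log2 folds of 0.10 to 0.31. Pabpc4 (without AZD IP 2 or 3) had log2 folds of -0.61 to -0.34. Of the 7 calls in AZD against tumor input, those of Eif3f and Eif4a2 were made under every alternative, and the other 5 were lost without 1 library or another. In the contrast of IP minus input, Eif2c4 was lost without AZD input replicate 2. No left-out library turned the sign of a call.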

How the data were processed

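The authors deposited 1 table of raw counts per gene symbol for 18 RNA libraries, not normalized. Per the labels' protocols, RNA came from RNeasy Mini columns and libraries from the NEBNext Ultra Directional kit, and per the submitters' processing notes STAR, DESeq2 and mm10 were used. The counting tool, annotation, strand setting and versions were not given in the sources used here, so reads of overlapping or antisense genes may be shared.

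Libraries were scaled by TMM, genes kept by filterByExpr and differences tested with edgeR 4.0.16 (R 4.3.3, quasi-likelihood F test, Benjamini-Hochberg over all genes, 0.05), in 11 comparisons. Conditions were compared within a fraction in a fit of its 9 libraries, IP and input within a condition in a fit of 6 and IP minus input in a fit of all 18. Errors beside folds are standard errors from the fit, and CPM values are TMM-scaled over all 18 libraries. Paralog ratios used CPM plus 0.5 and exact permutation tests (scipy 1.17.1, two-sided). Scripts were tested on simulated data.

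Same-number input and IP libraries deviated together over 16016 genes (control correlations 0.18 to 0.24, tumor 0.49 to 0.74, AZD 0.23 to 0.47), so the numbers pair fractions. The members, roles and lists were chosen with earlier results of these data known, and the lists support nothing on their own. Named in full were, in tumor against control and AZD against tumor in IP, up to 6 called members a side with the smallest adjusted p and at least 10 CPM, the 3 highest in CPM and paralog pairs; other genes were named by role. 63 member symbols matched RefSeq (GRCm38.p6) by symbol and 4 by synonym, and the printed windows are RefSeq's. Alternatives were RLE size factors, plain totals, no filter, a mean of at least 5 CPM, DESeq2 1.42.0, a fit of all 18 libraries, the replicate block and leaving out each library. Figures used matplotlib 3.10.9 in Python 3.11.15.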

Additional observations from a re-analysis of the deposited data

Results flagged for a closer look

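For 7 members the effect of AZD against tumor differed between IP and input by the test of the difference itself, in edgeR's quasi-likelihood fit of all 18 libraries. The value was higher in IP for Eef1a2 (0.85 ± 0.21, adjusted p = 0.00564), Eif3f (0.49 ± 0.13, adjusted p = 0.00736), Eif1 (0.45 ± 0.13, adjusted p = 0.0163), Eif4enif1 (0.45 ± 0.11, adjusted p = 0.00729) and Eif2b5 (0.43 ± 0.12, adjusted p = 0.0102), given as log2 of IP minus input. It was lower in IP for Eif2c4 (-0.93 ± 0.29, adjusted p = 0.0199) and Pabpc5 (-0.81 ± 0.24, adjusted p = 0.0165). In the same contrast 33.1% of all genes were called. That fit did not pair the fractions by replicate number. With the replicate number as a block, 14 members were higher and 6 lower, beside 21.8% and 28.4% of all genes. Input and IP belong to different library sets in tumor but to the same set with AZD. This contrast therefore cannot be told apart from the library set. With plain library totals the calls of Eif1, Eif2b5, Eif3f and Eif4enif1 were lost. For Eef1a2 the AZD effect was 1.12 ± 0.12 in IP and 0.33 ± 0.16 in input, for Eif1 -0.04 ± 0.10 and -0.43 ± 0.10, and for Eif3f -0.16 ± 0.09 and -0.60 ± 0.10. For Pabpc5 it was -0.75 ± 0.12 and 0.11 ± 0.21, and for Eif2c4 -1.23 ± 0.19 and -0.24 ± 0.18. The summed markers of the glioma lineage lay at 505 to 690.0 CPM in AZD IP and 2798 to 4033 in AZD input, against 4834 to 5264 and 5999 to 6786 in tumor, and their part in these values was not tested.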

How the results depend on the processing

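Of 218 calls of members over the comparisons, 103 were also called under every alternative, and 394 alternative values of the others missed the threshold with 0 changes of sign. Counts of called members that moved by over 1.5 times were, for IP against input, 11 in control in the fit of all 18 libraries (23 in its own fit) and 18 with AZD under plain library totals (31). In tumor IP against input, where 0 were called, DESeq2 called 4, the fit of all libraries 8 and the replicate block 22. For AZD against tumor in input, 7 were called, and 12 with DESeq2, 13 in the fit of all libraries and 11 with the replicate block, whose numbers do not pair animals between conditions (correlations -0.1 to 0.29). For AZD against tumor, IP minus input, the replicate block called 20 in place of 7. The block moved no other count of calls by over 1.5 times. Leaving out 1 library gave 17 to 22 calls for control IP against input, 0 to 0 for tumor, 24 to 32 for AZD, 24 to 31 for tumor against control in IP and 19 to 30 in input. It gave 23 to 29 for AZD against tumor in IP and 2 to 7 in input, 19 to 31 for AZD against control in IP and 13 to 27 in input, and 0 to 0 and 6 to 10 for the contrasts of IP minus input of tumor and AZD. The cause of these shifts was not tested. At 3 libraries a group, log2 differences of the size of the printed standard errors could not be detected, and larger ones could be missed.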
